A study of Homo sapiens with 17 samples.

Results

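The genes described here encode the proteins of the mitochondrial ribosome, the machine inside mitochondria that translates the few messenger RNAs of mitochondrial DNA. They were chosen by symbol, as every gene in the deposited tables named MRPL or MRPS followed by a number and, for some, a letter A, B or C. This gave 77 genes of the 14613 listed in either table. All 77 were listed in the table of the MG132 experiment, which held 14085 genes, and 75 in the table of the heat shock experiment, which held 13616. In each of the 2 tables, a set of 75 passed a filter on low values and were tested. The 2 that did not pass, MRPL23 and MRPS24, were listed at no more than 6.11 and 2.09 normalised counts in any MG132 library and were not listed in the heat shock table.

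Mitochondrial ribosomes are built in the mitochondrial matrix from ribosomal RNAs made there and from proteins that are all encoded in the nucleus, translated in the cytosol and imported. Their large subunit joins amino acids and their small subunit decodes the messenger RNA, as in bacteria, but many of the proteins have no bacterial counterpart. The products are core subunits of the respiratory chain and ATP synthase, so that the nuclear and mitochondrial sets of respiratory genes meet at this ribosome.

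The cells were PC3M, a human prostate cancer line derived from PC-3 cells, and transcripts were measured in 17 libraries that each count tags from the 3' ends of transcripts (QuantSeq FWD). The title of the study links HSF1, a transcription factor of the stress response, JMJD6, an oxygenase, and heat shock proteins in 1 circuit of adaptation to damaged proteins. In the MG132 experiment, cells carrying an siRNA against JMJD6 (siJMJD6, n = 2), HSF1 knockout cells (HSF1 KO, libraries A and B, n = 2) and cells carrying a non-targeting siRNA (siNT, n = 2) all received the proteasome inhibitor MG132 at 2.5 µM for 4 hours, and further siNT cells received the solvent DMSO (n = 2). In the heat shock experiment, siJMJD6 cells (n = 3) and siNT cells (n = 3) were held at 42 °C for 1 hour and left to recover for 2 hours, and siNT cells without stress formed the basal group (n = 3). Transfection with siRNA lasted 72 hours, and the labels name no siRNA for the HSF1 KO cells, and whether these cells were transfected is not known here. The labels do not say whether libraries A and B are separate clones. The labels do not tie replicates to separate cultures, and the p-values therefore reflect a spread among libraries that may be technical. No unstressed siJMJD6 or HSF1 KO library was analysed here, and a difference under stress cannot be told apart from one already present before it.

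Column totals lay between 1505826 and 1819640 normalised counts, and 8489 to 9289 genes reached 10 in a library. JMJD6 was measured at 26.6 and 16.6 in siJMJD6 MG132 libraries, against 166.7 and 129.8 in siNT MG132 libraries, and at 9.72, 7.66 and 14.6 in siJMJD6 heat shock libraries, against 209.0, 210.2 and 253.3 in siNT heat shock libraries. In HSF1 KO libraries JMJD6 was at 80.5 and 79.4, not called against siNT MG132 libraries (log2 fold change -0.87 ± 0.32, limma adjusted p = 0.267). HSF1 was at 285.2 and 175.4 in HSF1 KO libraries and 1687.1 and 1884.1 in siNT MG132 libraries. Its tags may lie outside the deleted part, which the labels do not give. The epithelial markers EPCAM, KRT8, KRT18, KRT19 and CDH1 were listed in both tables and summed to at least 1479 in every library. Most of this sum came from KRT18 and KRT19. The mesenchymal markers were VIM, ZEB1, CDH2, FN1 and SPARC. They summed to 598.8 to 891.1 in the MG132 experiment and 823.3 to 984.3 in the heat shock experiment. VIM and CDH2 were each higher than CDH1 in every library. Androgen receptor-positive prostate markers summed to at most 28.3, and blood and immune markers to at most 8.54.

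The promoters of 5 genes on which the results below turn are shown here, so that MRPL18, which rose after heat shock, can be read beside 3 genes that were lower and 1 that was higher with siJMJD6 in both experiments. Each runs 5' to 3' on the gene's own strand from 250 bases before the transcription start site to 30 bases after it, as annotated by RefSeq on GRCh38.p14. Capitals mark every match in these windows, on either strand, to the ETS factor core CCGGAAG, the NRF1 site (GCGC, any base, then TGCGC), the YY1 site AANATGGC and the CCAAT box CCAAT. The windows lie at chr6:159789562-159789841 (plus strand, MRPL18), chr6:43687762-43688041 (minus, MRPS18A), chr20:3045802-3046081 (plus, MRPS26), chr12:93467264-93467543 (plus, MRPL42) and chr7:141014923-141015202 (minus, MRPS33).
MRPL18: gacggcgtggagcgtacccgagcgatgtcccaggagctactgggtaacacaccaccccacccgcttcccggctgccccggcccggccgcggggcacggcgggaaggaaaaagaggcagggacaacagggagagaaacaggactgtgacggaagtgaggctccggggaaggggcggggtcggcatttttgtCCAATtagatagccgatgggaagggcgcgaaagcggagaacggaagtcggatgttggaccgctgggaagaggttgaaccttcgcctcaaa
MRPS18A: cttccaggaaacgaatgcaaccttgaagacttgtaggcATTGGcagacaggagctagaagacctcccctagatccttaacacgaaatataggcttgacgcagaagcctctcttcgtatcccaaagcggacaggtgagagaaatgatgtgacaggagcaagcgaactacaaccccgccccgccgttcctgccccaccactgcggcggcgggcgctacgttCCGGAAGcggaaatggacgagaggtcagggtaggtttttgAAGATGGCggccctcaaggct
MRPS26: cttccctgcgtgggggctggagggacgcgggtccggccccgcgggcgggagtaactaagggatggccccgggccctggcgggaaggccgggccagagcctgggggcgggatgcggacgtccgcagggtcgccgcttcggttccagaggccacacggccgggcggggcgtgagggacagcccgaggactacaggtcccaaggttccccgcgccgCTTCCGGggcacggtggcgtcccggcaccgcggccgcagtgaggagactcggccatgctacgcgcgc
MRPL42: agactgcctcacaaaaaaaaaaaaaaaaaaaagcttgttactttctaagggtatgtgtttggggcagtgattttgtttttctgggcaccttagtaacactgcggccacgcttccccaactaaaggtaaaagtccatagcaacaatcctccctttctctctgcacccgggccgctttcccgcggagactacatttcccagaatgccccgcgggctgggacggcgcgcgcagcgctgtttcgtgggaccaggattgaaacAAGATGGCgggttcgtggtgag
MRPS33: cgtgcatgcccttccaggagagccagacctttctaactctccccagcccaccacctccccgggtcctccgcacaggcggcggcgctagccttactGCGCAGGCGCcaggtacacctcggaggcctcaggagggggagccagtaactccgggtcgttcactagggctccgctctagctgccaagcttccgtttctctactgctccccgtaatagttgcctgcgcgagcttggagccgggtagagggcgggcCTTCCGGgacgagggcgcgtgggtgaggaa
MRPS18A held an ETS core whose first base lay at -31 from the start site and a YY1 site at 10, with a CCAAT box on the other strand at -212. MRPS26 held an ETS core at -37, MRPL42 a YY1 site at 9, and MRPS33 an ETS core at 1 and an NRF1 site at -155. MRPL18 held a CCAAT box at -60. RefSeq lists 3 such windows for MRPL18, 2 for MRPS33 and 1 for each of the other genes, and the first listed is shown. An ETS core of MRPL18 and a CCAAT box of MRPS33 lie in windows not shown. A match is a run of letters and does not show that a factor binds there.

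The mitochondrial ribosomal protein genes together made up 0.866% to 1.01% of a library's normalised counts. Because each read of this assay comes from a transcript's 3' end, levels are not scaled by length. The median level of a tested gene over all libraries was 146.0 normalised counts in the MG132 experiment and 148.0 in the heat shock experiment. In the MG132 table the highest means belonged to MRPS16 (689.6), MRPL41 (682.1) and MRPS18B (624.0), and in the heat shock table to MRPS16 (730.9), MRPL20 (635.4) and MRPS18B (609.1). The lowest tested were MRPS31, MRPL39 and MRPS28 in both tables, with means of 9.98, 19.4 and 21.6 under MG132 or DMSO, against 16.4, 38.7 and 21.8 in the heat shock experiment. In either table the lowest library of each of the 3 highest genes lay above the highest library of each of the 3 lowest. This follows from choosing the genes by these levels.

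Among the 6 comparisons, calls were most frequent for the JMJD6 knockdown after heat shock. There, 29 of the 75 genes fell and 12 rose in siJMJD6 cells relative to siNT cells, by limma on log2 normalised counts with Benjamini-Hochberg adjustment over all genes (adjusted p under 0.05). Of the mitochondrial ribosomal protein genes 54.7% were thus called, 38.7% lower and 16.0% higher, against 46.4% of all 9831 genes tested, 24.9% lower and 21.4% higher. The median log2 fold change was -0.15 for these genes and -0.03 for all genes tested, and 65.3% of these genes lay below 0, against 52.2% of all genes. Their summed counts were 14569.3, 14656.3 and 14648 in siJMJD6 libraries and 15843.4, 15958.8 and 16343.1 in siNT libraries. Every siJMJD6 library was below every siNT library. As shares of the library these sums were 0.876%, 0.888% and 0.866% in siJMJD6 cells and 0.936%, 0.924% and 0.947% in siNT cells. In such bulk measurements, fewer cells of one kind and less RNA per cell cannot be told apart.

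**Figure D1:**
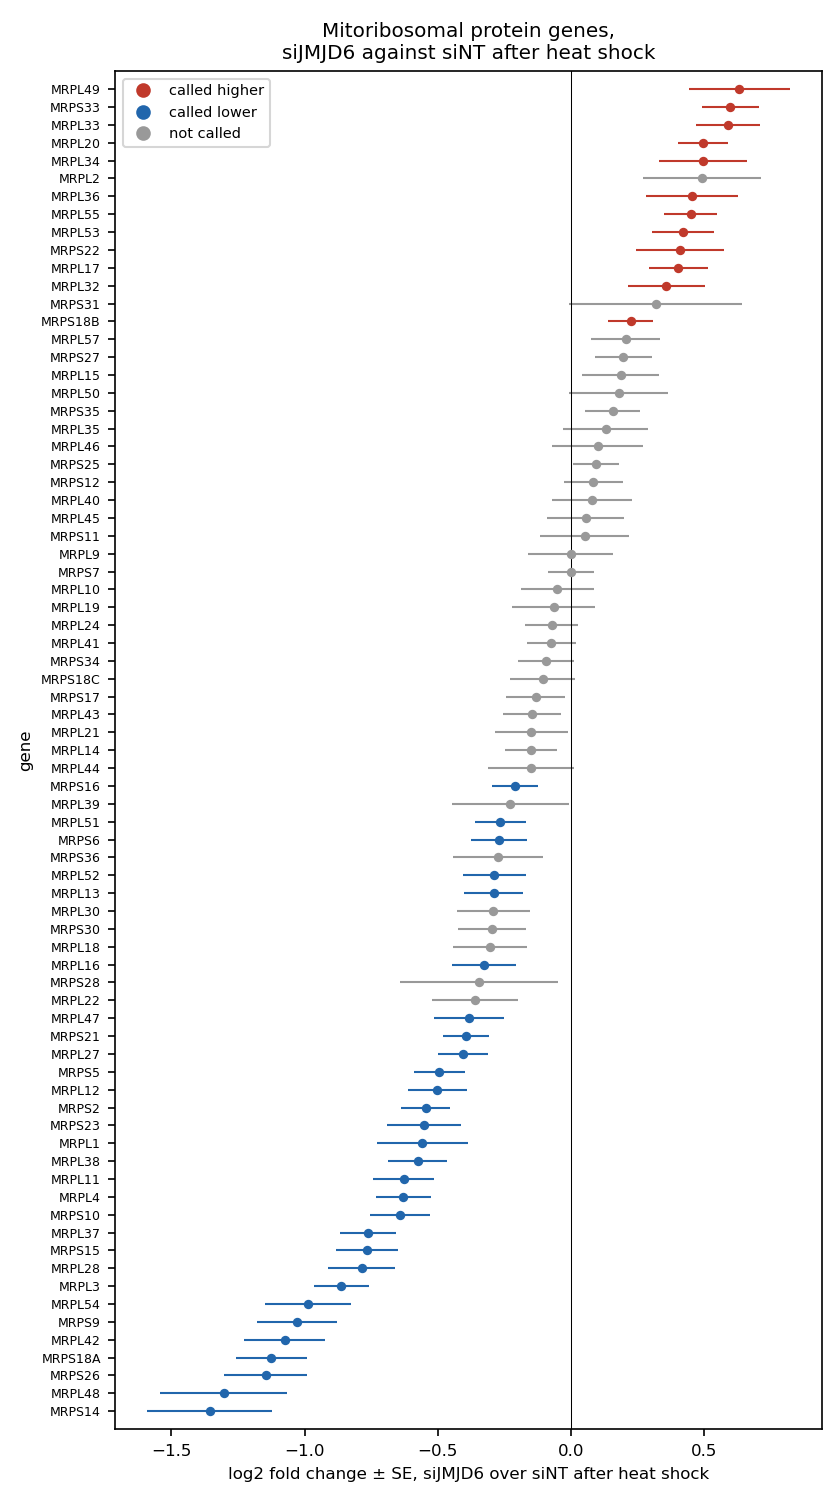
Log2 fold change (x axis, point) with its standard error (bar) for each of the 75 genes (y axis, sorted), siJMJD6 over siNT after heat shock, 3 libraries in each group. Blue points are the 29 genes called lower, red points the 12 called higher, and they run from -1.36 (MRPS14) to 0.63 (MRPL49).

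Of the 29 genes that fell, 6 were at least 2-fold lower. The groups did not overlap for 27 of the 29 (93.1%), against 94.6% of all genes called lower. The smallest adjusted p belonged to MRPS18A, which despite its symbol encodes a large-subunit protein (mL66), 1 of 3 human relatives of bacterial ribosomal protein S18. It is encoded at chr6:43671303-43687791 (GRCh38, minus strand) and had 106.8, 78.8 and 88.2 normalised counts in siJMJD6 libraries, against 223.3, 210.4 and 166.5 in siNT libraries. The groups did not overlap, and the log2 fold change was -1.12 ± 0.13 (SE, n = 3 each, limma adjusted p = 1.43e-08). An exon of RSPH9 overlaps MRPS18A on the other strand, and whether the authors counted by strand is not stated in the labels or notes, so reads of such partners cannot be told apart.

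MRPS26, a small-subunit protein with no bacterial counterpart encoded at chr20:3045945-3048254 (plus strand), had 78.3, 54.4 and 97.0 normalised counts in siJMJD6 libraries, against 183.7, 165.7 and 150.5 in siNT libraries. All 3 siJMJD6 values lay below 100 and all 3 siNT values above 150, a log2 fold change of -1.15 ± 0.16 (SE, limma adjusted p = 1.81e-07). MRPL42, a large-subunit protein also particular to mitochondria, at chr12:93467488-93516213 (plus strand), had 44.5, 63.8 and 61.7 in siJMJD6 libraries, against 122.8, 105.6 and 130.2 in siNT libraries. No siJMJD6 value came near the lowest siNT value (log2 fold change -1.07 ± 0.15, limma adjusted p = 5.02e-07). The gene has 4 named pseudogenes with which it could share reads.

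MRPL3, counterpart of a bacterial protein that reaches toward the peptidyl transferase centre, lies at chr3:131462212-131502983 (minus strand). It had 228.3, 279.5 and 198.9 normalised counts in siJMJD6 libraries, against 428.0, 408.7 and 438.0 in siNT libraries. The groups were far apart (log2 fold change -0.86 ± 0.10, limma adjusted p = 1.96e-08). The largest fold changes belonged to 2 genes of low level. MRPS14, a small-subunit protein shared with bacteria, had 17.0, 14.0 and 25.5 in siJMJD6 libraries, against 37.7, 49.0 and 60.8 in siNT libraries (log2 fold change -1.36 ± 0.23, limma adjusted p = 1.22e-05). MRPL48, a large-subunit protein particular to mitochondria, had 35.9, 17.2 and 15.6, against 57.1, 54.7 and 50.7 in siNT libraries (-1.30 ± 0.24, limma adjusted p = 2.88e-05). For both genes the highest siJMJD6 value stayed under the lowest siNT value. An exon of CACYBP overlaps MRPS14 on the other strand.

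Other genes that fell belonged to both subunits. In the small subunit, log2 fold changes were -1.03 for MRPS9, -0.77 for MRPS15, -0.64 for MRPS10, -0.55 for MRPS2, -0.49 for MRPS5 and -0.39 for MRPS21, all shared with bacteria, and -0.55 for MRPS23, which is particular to mitochondria. MRPS9 had 51.9, 50.1 and 55.8 normalised counts in siJMJD6 libraries, against 110.2, 115.3 and 100.0 in siNT libraries. In the large subunit, log2 fold changes were -0.99 for MRPL54, -0.76 for MRPL37 and -0.58 for MRPL38, all particular to mitochondria, and -0.79 for MRPL28, -0.63 for MRPL4, -0.63 for MRPL11 and -0.41 for MRPL27, which have bacterial counterparts. MRPL11 forms the base of the stalk, the flexible arm that recruits translation factors, and MRPL12 is the stalk protein itself. MRPL12 had 238.8, 212.6 and 254.8 in siJMJD6 libraries, against 396.2, 330.5 and 281.5 in siNT libraries, so the groups did not overlap (-0.50 ± 0.11, limma adjusted p = 0.000331).

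The 12 genes that rose did so by less, with log2 fold changes of 0.22 to 0.63, and 11 had groups that did not overlap (91.7%, against 94.5% of all genes called higher). MRPS33, a small-subunit protein particular to mitochondria at chr7:141002610-141015228 (minus strand), had 296.8, 329.2 and 309.8 normalised counts in siJMJD6 libraries, against 208.6, 210.3 and 198.4 in siNT libraries (log2 fold change 0.60 ± 0.11, limma adjusted p = 2.02e-05). Every siJMJD6 library was higher, with little spread inside either group. It has 3 named pseudogenes. MRPL20, an early-binding large-subunit protein in bacteria, had 775.4, 798.8 and 698.9 in siJMJD6 libraries, against 462.6, 527.7 and 631.7 in siNT libraries (0.50 ± 0.09, limma adjusted p = 4.91e-05). MRPL33, a small relative of a bacterial large-subunit protein, had 537.7, 683.0 and 634.2, against 328.4, 395.3 and 527.0 in siNT libraries (0.59 ± 0.12, limma adjusted p = 0.000114). For both, the lowest siJMJD6 library lay above the highest siNT library by a small margin. MRPL33 shares exon sequence with BABAM2 on the same strand. MRPL55 and MRPL17, also large-subunit proteins, rose by 0.45 ± 0.10 and 0.40 ± 0.11 on the log2 scale (limma adjusted p = 0.000372 and 0.00279).

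The 3 relatives of bacterial S18 gave 1 gene called lower, 1 called higher and 1 not called, and the differences between them were not tested. Beside MRPS18A, which fell, MRPS18B, whose protein (mS40) sits in the small subunit, had 679.3, 616.2 and 614.6 normalised counts in siJMJD6 libraries, against 546.7, 556.6 and 530.3 in siNT libraries. Its rise was small (log2 fold change 0.22 ± 0.08, limma adjusted p = 0.0289) and was no longer called when siNT heat shock library 2 or 3 or siJMJD6 heat shock library 1 was left out. MRPS18C (bS18m), which takes the bacterial position, had 131.0, 132.8 and 136.3 in siJMJD6 libraries, against 139.1, 147.7 and 144.2 in siNT libraries (-0.11 ± 0.12, limma adjusted p = 0.497) and was not called. MRPS12, the decoding-centre protein that is the target of streptomycin resistance mutations in bacteria, was not called either. It had 316.9, 266.7 and 278.4 in siJMJD6 libraries, against 299.5, 275.1 and 239.9 in siNT libraries. MRPS12 shares exon bases on opposite strands with SARS2, the mitochondrial seryl-tRNA synthetase, which was measured at 2.21, 3.28 and 1.93 in siJMJD6 libraries, against 13.6, 20.7 and 11.2 in siNT libraries (-2.20 ± 0.41, limma adjusted p = 4.32e-05).

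Grouped by the structural names that RefSeq lists for 74 of the 77 genes, 18 of 49 large-subunit genes fell and 9 rose, and 11 of 24 small-subunit genes fell and 3 rose. Of 43 proteins whose names are shared with bacteria, 19 fell and 7 rose, and of 30 with mitochondrial names, 10 fell and 5 rose. The 30 include MRPS18A and MRPS18B, although both are relatives of bacterial S18. The medians were -0.15 and -0.12 on the log2 scale for large- and small-subunit genes, and -0.21 and -0.08 for shared and mitochondrial names. Falls thus outnumbered rises in each of these classes, as they did over all genes tested (24.9% lower, 21.4% higher). Differences between classes, or between a class and all genes, were not tested. MRPS36, listed by RefSeq as KGD4 and now known as a part of the oxoglutarate dehydrogenase complex, was not called. The 41 calls held in 29 genes whichever library was left out and in every alternative tried. These include every gene called and named above for this comparison other than MRPS18B. The epithelial markers summed to 2654 to 2881 in siJMJD6 heat shock libraries and 2310 to 2500 in siNT heat shock libraries, with 3 of 5 called higher, and the mesenchymal markers to 823.3 to 894.8 in siJMJD6 and 920.6 to 974.6 in siNT heat shock libraries, with 1 of 5 called lower. Their part in the result was not tested.

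Under MG132, 4 of the 75 genes fell and 4 rose in siJMJD6 cells relative to siNT cells. These are 10.7% of the mitochondrial ribosomal protein genes, 5.33% in each direction, against 13.6% of all genes tested, 7.35% lower and 6.22% higher. The median log2 fold change was -0.06 for these genes and -0.05 for all genes. These genes made up 0.909% and 0.907% of siJMJD6 MG132 libraries and 0.873% and 0.872% of siNT MG132 libraries. The share was thus higher in siJMJD6 cells here and lower after heat shock. MRPL genes alone made up 0.509% and 0.524% in siJMJD6 and 0.462% and 0.433% in siNT MG132 libraries. MRPS genes made up 0.401% and 0.383%, against 0.411% and 0.44%, so the MRPS share was lower with siJMJD6 in both experiments. The summed counts of all these genes overlapped, at 16547.7 and 14316.9 in siJMJD6 MG132 libraries and 14331.2 and 15041.4 in siNT MG132 libraries. The median standard error of these genes was 0.302 here, with 2 libraries a group, and 0.127 in the heat shock experiment.

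The 4 genes that fell were MRPS26, MRPS18A, MRPL42 and MRPL3. MRPS26 had 168.0 and 113.3 normalised counts in siJMJD6 libraries, against 372.8 and 362.3 in siNT libraries. The groups lay far apart, and the log2 fold change was -1.41 ± 0.27 (SE, n = 2 each, limma adjusted p = 0.00515). MRPS18A had 122.3 and 117.0 in siJMJD6 libraries, against 202.9 and 328.3 in siNT libraries (-1.10 ± 0.28, limma adjusted p = 0.0217). MRPL42 had 38.3 and 17.6, against 84.4 and 53.9 in siNT libraries (-1.34 ± 0.39, limma adjusted p = 0.0374). MRPL3 had 167.0 and 214.6, against 317.2 and 350.0 in siNT libraries (-0.81 ± 0.24, limma adjusted p = 0.0437). No siJMJD6 value of these genes reached the lower siNT value. The same absence of overlap held for 100% of all genes called lower in this comparison.

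The 4 genes that rose were MRPL57, MRPS33, MRPL55 and MRPL17. MRPL57, a short large-subunit protein particular to mitochondria (mL63) at chr13:21176645-21179084 (plus strand), had 160.5 and 215.7 normalised counts in siJMJD6 libraries, against 68.0 and 84.1 in siNT libraries (log2 fold change 1.29 ± 0.29, limma adjusted p = 0.013). It has 5 named pseudogenes. MRPS33 had 349.8 and 258.3 in siJMJD6 libraries, against 138.1 and 152.2 in siNT libraries (1.05 ± 0.28, limma adjusted p = 0.0297). Both genes were above the siNT values in each siJMJD6 library, as were 100% of all genes called higher in this comparison. MRPL55, at chr1:228106679-228109312 (minus strand), had 1007.9 and 658.8, against 418.2 and 422.7 in siNT libraries (0.95 ± 0.26, limma adjusted p = 0.0305). MRPL17, whose bacterial relative lies near the exit of the peptide tunnel, is at chr11:6680782-6683401 (minus strand) and had 225.4 and 267.7, against 134.9 and 129.5 in siNT libraries (0.89 ± 0.25, limma adjusted p = 0.0326). The siJMJD6 libraries of MRPL55 were high but far apart, while those of MRPL17 were close.

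MRPS26 kept its call whichever of the 8 libraries was left out, and each of the other 7 genes lost it at least once. Without siNT MG132 library 1, 0 genes were called higher and 2 lower; without siNT MG132 library 2, 1 and 2; without HSF1 KO library A or B, which enter through the shared estimate of spread, 3 and 2. The epithelial markers summed to 2141 and 2472 in siJMJD6 MG132 libraries and 1479 and 2026 in siNT MG132 libraries, and the mesenchymal markers to 598.8 and 753.5 in siJMJD6 and 768.4 and 828.3 in siNT MG132 libraries. Neither list had a call by limma, with 1 of 5 genes of each at an unadjusted p under 0.05, against 2769 of 9778 genes tested. The part of these markers in the result was not tested.

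**Figure D2:**
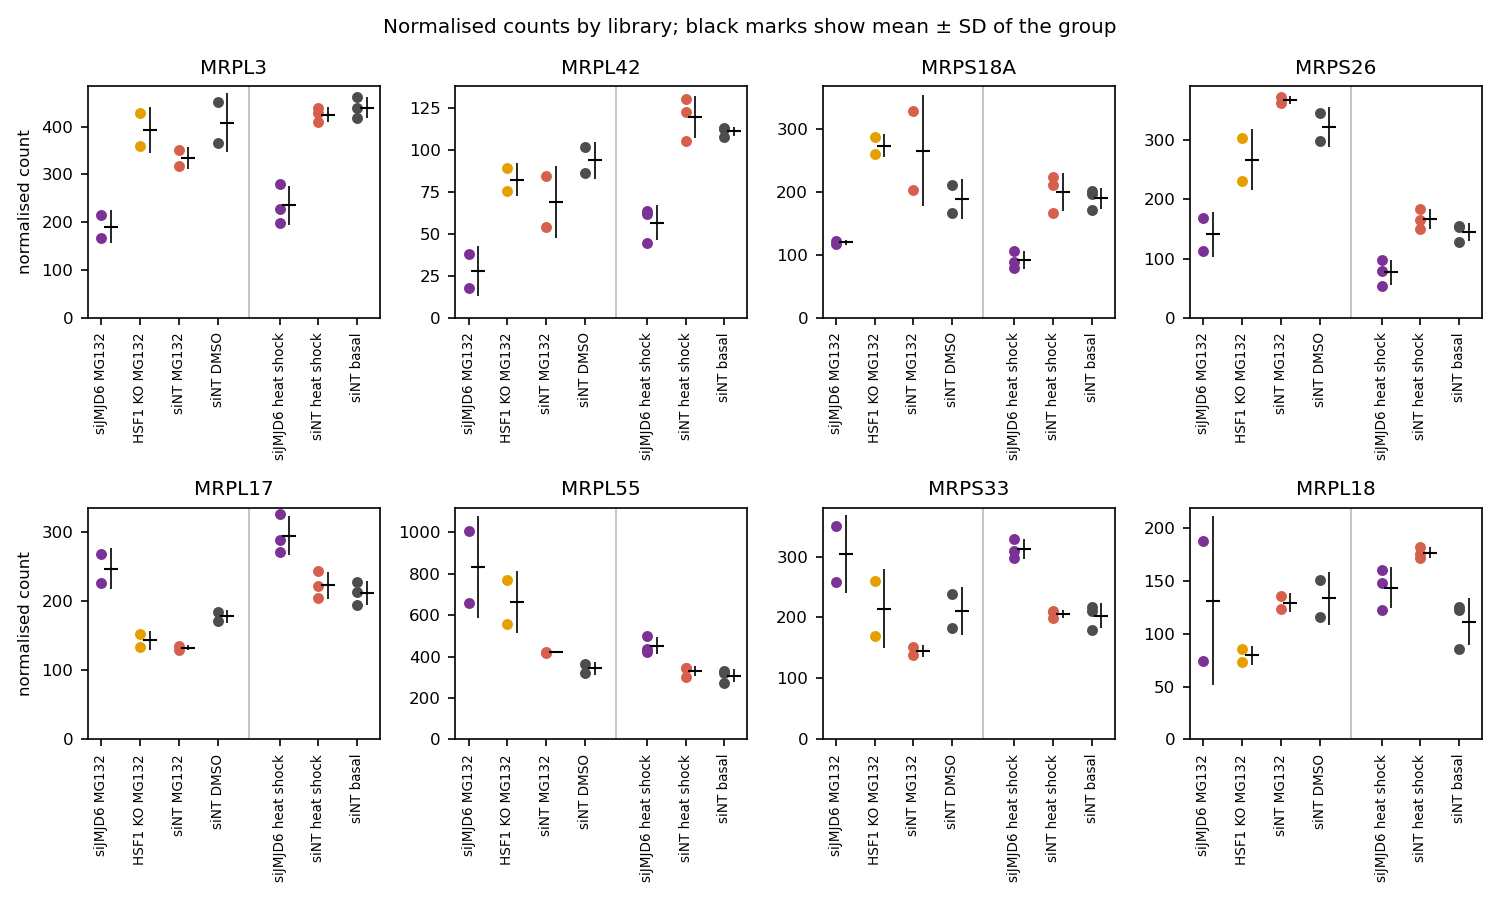
Normalised counts (y axis, from 0) in each library (points) for 8 genes, with the mean ± SD of each group in black (n = 2 in the 4 groups left of the grey line, n = 3 in the 3 groups right of it). MRPL3, MRPL42, MRPS18A and MRPS26 are low in both siJMJD6 groups, MRPL17, MRPL55 and MRPS33 are high in both, and MRPL18 is high after heat shock in siNT cells, at 172.0 to 182.3. The tables left and right of the line were normalised separately.

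The siJMJD6 comparisons of the 2 experiments share no library, so their effects can be set side by side. Of the 8 genes called under MG132, 7 were also called after heat shock, all in the same direction. MRPL57 was the exception, with 153.2, 173.1 and 149.0 normalised counts in siJMJD6 heat shock libraries, against 156.5, 122.6 and 134.3 in siNT heat shock libraries (log2 fold change 0.20 ± 0.13, not called). The 7 shared genes are 87.5% of those called under MG132 and 17.1% of those called after heat shock. For all genes tested in both tables the same shares were 83.3% and 24.5%. The log2 fold changes under MG132 and after heat shock were -1.41 and -1.15 for MRPS26, -1.10 and -1.12 for MRPS18A, -1.34 and -1.07 for MRPL42, and -0.81 and -0.86 for MRPL3. They were 1.05 and 0.60 for MRPS33, 0.95 and 0.45 for MRPL55, and 0.89 and 0.40 for MRPL17. Across all 75 genes, 54 had the same sign in both (72.0%, against 74.0% of 9379 genes tested in both), with a Pearson r of 0.704 and a Spearman rho of 0.69 across genes (0.701 and 0.66 for all genes). Genes are not independent replicates, and these values lay near those of all genes.

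**Figure D3:**
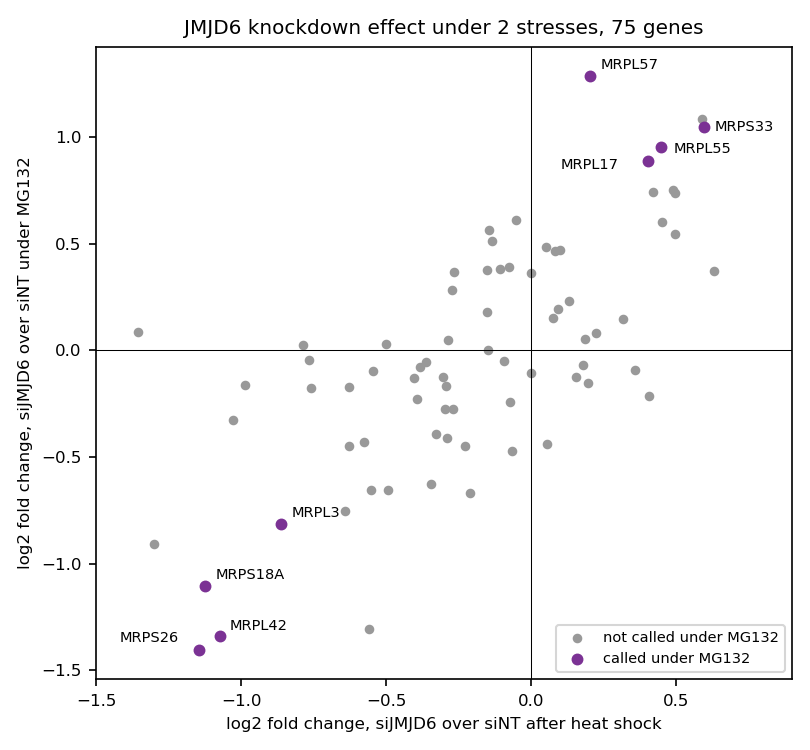
Log2 fold change of siJMJD6 over siNT after heat shock (x axis, n = 3 each) and under MG132 (y axis, n = 2 each) for the 75 genes (points). The 8 named purple points were called under MG132, and each lies on the same side of 0 on both axes, with MRPL57 near 0 on the x axis at 0.20.

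After heat shock 1 gene passed the test. In siNT cells, of the 75 mitochondrial ribosomal protein genes only MRPL18 was called after heat shock (1.33%), against 4.09% of all genes tested, 2.86% higher and 1.23% lower. MRPL18 is a large-subunit protein (uL18m) known from human cells to be made also as a shorter cytosolic form during heat stress, which joins cytosolic ribosomes and aids translation of HSP70. It lies at chr6:159789812-159798436 (plus strand) and had 172.0, 182.3 and 175.6 normalised counts after heat shock, against 125.6, 122.8 and 85.8 in basal siNT libraries. The groups did not overlap, and the heat-shocked libraries were close together (log2 fold change 0.68 ± 0.14, limma adjusted p = 0.0015). Of all genes called higher after heat shock, 98.6% likewise had no overlap. The call held whichever library was left out and in every alternative. In siJMJD6 heat shock libraries MRPL18 had 122.6, 160.4 and 148.0, below the siNT heat shock values in every library but not called (-0.30 ± 0.14, limma adjusted p = 0.0705). The deposited counts sum all 3' tags of the gene and do not show which protein form was made.

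The next genes by p-value were not called. MRPL37 had 308.2, 350.0 and 304.2 normalised counts after heat shock, against 240.1, 255.7 and 259.3 in basal libraries (log2 fold change 0.35 ± 0.11, limma adjusted p = 0.0561). MRPS18B had 546.7, 556.6 and 530.3, against 656.5, 687.0 and 594.9 in basal libraries (-0.24 ± 0.08, limma adjusted p = 0.113), and MRPS22 had a log2 fold change of -0.47 ± 0.16 (limma adjusted p = 0.117). MRPL37 was thus higher in every heat-shocked library and MRPS18B lower, by amounts the adjustment over all genes did not pass. Of the 74 genes not called, 13 had groups that did not overlap, and the share over all genes tested was not counted. The median over the 75 genes was 0.03 on the log2 scale, against -0.002 for all genes tested.

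With MG132 against DMSO in siNT cells, limma called none of the 75 genes, with 2 at an unadjusted p under 0.05. Over all genes tested the shares were 0.266% called (0.205% higher, 0.0614% lower) and 5.66% at that unadjusted p. The 2 genes were MRPL34, a short large-subunit protein, and MRPL33. MRPL34 had 67.0 and 51.0 normalised counts under MG132, against 130.6 and 140.9 with DMSO (log2 fold change -1.20 ± 0.30, limma adjusted p = 0.255). MRPL33 had 213.2 and 116.3 under MG132, against 350.4 and 498.1 with DMSO (-1.40 ± 0.40, limma adjusted p = 0.37). Both were lower in each MG132 library. Groups did not overlap for 27 of the 75 genes, although none was called, and the share over all genes tested was not counted. MRPS36 and MRPS33 followed, with log2 fold changes of -0.82 and -0.52 and limma adjusted p of 0.904 and 0.908. The 75 genes had a median of -0.04, against -0.005 for all genes, and made up 0.873% and 0.872% of siNT MG132 libraries and 0.98% and 1.01% of siNT DMSO libraries. Their summed counts overlapped, at 14331.2 and 15041.4 under MG132 and 14755.1 and 15625.4 with DMSO. MRPL18 was not called, at 135.9 and 123.0 under MG132 and 115.7 and 151.1 with DMSO (-0.03 ± 0.37, limma adjusted p = 0.997).

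**Figure D4:**
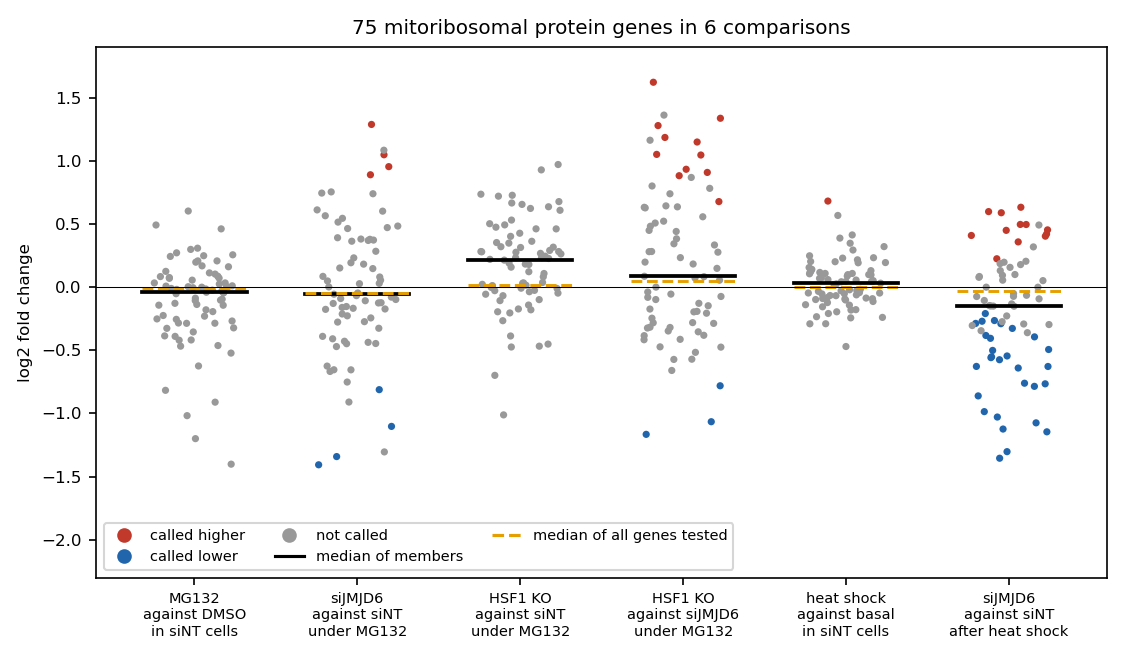
Log2 fold change (y axis) of each of the 75 genes (points) in the 6 comparisons (x axis), with the median of these genes (black line) and of all genes tested (dashed line). Calls are red or blue; they number 8 in the siJMJD6 comparison under MG132, 14 between HSF1 KO and siJMJD6, 1 after heat shock and 41 for siJMJD6 after heat shock.

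HSF1 KO cells against siNT cells under MG132 also gave no call among the 75 genes by limma, with 5 at an unadjusted p under 0.05. Over all genes tested the shares were 1.28% called (0.276% higher, 1.0% lower) and 12.8% at that unadjusted p. The 4 genes with the smallest p were MRPL47, MRPL20, MRPL15 and MRPL55. MRPL47 had 195.1 and 274.3 normalised counts in HSF1 KO libraries, against 109.2 and 126.7 in siNT libraries (log2 fold change 0.97 ± 0.27, limma adjusted p = 0.119). MRPL20 had 773.9 and 750.9, against 457.3 and 463.4 in siNT libraries (0.73 ± 0.22, limma adjusted p = 0.161). Both were higher in each HSF1 KO library. Such separation was common, as groups did not overlap for 31 of the 75 genes, none of them called. The share over all genes tested was not counted. MRPL15 had 73.1 and 51.6, against 103.0 and 151.4 in siNT libraries (-1.01 ± 0.35, limma adjusted p = 0.234), and MRPL55 had 768.5 and 556.0, against 418.2 and 422.7 (0.64 ± 0.26, limma adjusted p = 0.319). The median of the 75 genes was 0.21 on the log2 scale, against 0.01 for all genes tested, and 30.7% of them lay below 0, against 48.6% of all genes. Among the lists described below, the median was 0.19 for cytosolic ribosomal protein genes and 0.10 for respiratory genes. In these 25.9% and 32.5% lay below 0. The median was -0.004 for assembly factors, -0.10 for mitochondrial chaperones and proteases, and 0.19 to 0.41 for the other lists. Differences between lists were not tested. The 75 genes made up 0.968% and 0.98% of HSF1 KO libraries and 0.873% and 0.872% of siNT MG132 libraries. The epithelial markers summed to 2081 and 2089 in HSF1 KO and 1479 and 2026 in siNT MG132 libraries, and the mesenchymal markers to 864.1 and 891.1 in HSF1 KO and 768.4 and 828.3 in siNT MG132 libraries. Neither sum overlapped between the groups. No marker of either list was called by limma, with 2 mesenchymal and 0 epithelial markers at an unadjusted p under 0.05. Their part in the result was not tested. MRPL18 had 85.7 and 73.3 in HSF1 KO libraries, against 135.9 and 123.0 in siNT MG132 libraries, and was not called (-0.70 ± 0.37, limma adjusted p = 0.465).

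Set directly against siJMJD6 cells under MG132, HSF1 KO cells had 11 of the 75 genes higher and 3 lower. In all 18.7% of these genes were called, 14.7% higher and 4.0% lower, against 20.8% of all genes tested, 11.1% higher and 9.69% lower. The higher genes included the 4 that fell with siJMJD6 under MG132, namely MRPL3 (log2 fold change 1.04 ± 0.24), MRPS18A (1.18 ± 0.28), MRPL42 (1.62 ± 0.39) and MRPS26 (0.93 ± 0.27), and the lower ones included MRPL57 (-1.17 ± 0.29) and MRPL17 (-0.78 ± 0.25). This comparison shares its siJMJD6 libraries with the one above, so these are not separate evidence. MRPS18A had 260.2 and 286.7 normalised counts in HSF1 KO libraries, against 122.3 and 117.0 in siJMJD6 libraries, and MRPL3 had 427.2 and 358.9, against 167.0 and 214.6. Neither pair of groups overlapped, which held for 100% of all genes called higher in this comparison. The epithelial markers summed to 2081 and 2089 in HSF1 KO and 2141 and 2472 in siJMJD6 libraries, with 0 of 5 called by limma and 0 at an unadjusted p under 0.05. The mesenchymal markers summed to 864.1 and 891.1 in HSF1 KO and 598.8 and 753.5 in siJMJD6 libraries, with 1 of 5 called, SPARC (log2 fold change 3.85 ± 1.05, limma adjusted p = 0.021). SPARC was at 24.4 and 51.5 normalised counts in HSF1 KO and 5.4 and 0.0 in siJMJD6 libraries, so its fold change rests on values near 0. The groups did not overlap in either sum, and their part in the result was not tested. None of the 14 calls held in every fit with 1 library left out. Without HSF1 KO library A, 1 gene was called higher and 0 lower, and the same numbers were found without HSF1 KO library B.

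Genes that make, regulate or use the mitochondrial ribosome were counted beside its proteins. With siJMJD6 after heat shock 113 of the 253 tested genes of 8 lists (those named here, with respiratory, cytosolic ribosomal and chaperone genes) were called, 44.7% (19.0% higher, 25.7% lower), against 46.4% of all genes tested (21.4% higher, 24.9% lower). Of 24 tested assembly factors, 4 rose and 4 fell with siJMJD6 after heat shock (median log2 fold change 0.01). METTL17, which helps assemble the small subunit, was at 26.6, 44.7 and 36.2 normalised counts in siJMJD6 libraries, against 92.8, 106.0 and 99.8 in siNT libraries (-1.48 ± 0.17, limma adjusted p = 9.94e-09). DDX28, a helicase of large-subunit assembly, was higher (1.18 ± 0.18, limma adjusted p = 1.21e-06), as was the pseudouridine synthase TRUB2 (0.71 ± 0.16). Of 16 translation factors, 2 rose and 4 fell, with the elongation factor genes GFM1 (0.91 ± 0.16) and TSFM (0.63 ± 0.12) higher and SLIRP, which stabilises mitochondrial messenger RNAs, lower (-0.42 ± 0.09). Of 17 mitochondrial aminoacyl-tRNA synthetases, 1 rose and 4 fell, among them SARS2, WARS2 (-1.22 ± 0.30) and TARS2 (-0.86 ± 0.23). Of 15 genes of mitochondrial transcription and DNA maintenance, 3 rose and 1 fell. That 1 was GABPB1 (-0.87 ± 0.29, limma adjusted p = 0.0143), a subunit of the ETS factor GABP, which is known to bind promoters of many nuclear genes for mitochondrial proteins. The helicase gene C10orf2 (0.57 ± 0.19) and the coactivator gene PPRC1 (0.56 ± 0.19) were higher. Of 6 mitochondrial ribosomal proteins under other symbols, 2 rose, ICT1 (0.46 ± 0.13) and PTCD3 (0.33 ± 0.13), and 0 fell.

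Of 79 nuclear genes for respiratory chain and ATP synthase subunits, whose mitochondrially encoded partners this ribosome makes, 15 rose and 30 fell with siJMJD6 after heat shock (median -0.07). These are 19.0% higher and 38.0% lower, against 21.4% and 24.9% of all genes tested. ATP5G1, which encodes subunit c of ATP synthase, fell by 3.18 ± 0.09 on the log2 scale, UQCRC2 by 1.33 ± 0.10 and NDUFA11 by 1.22 ± 0.09. Of 81 cytosolic ribosomal protein genes, 19 rose and 16 fell (median 0.04), with RPL27A, RPS3 and RPL18 lower by 0.46 to 0.67. Of 15 mitochondrial chaperones and proteases, 2 rose and 6 fell (median -0.21), with the chaperonin genes HSPD1 (-1.24 ± 0.07) and HSPE1 (-0.64 ± 0.08) and the matrix HSP70 gene HSPA9 (-0.57 ± 0.09) lower. Differences between these lists and the mitochondrial ribosomal protein genes or all genes were not tested.

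In the other comparisons the share of these lists called was below that of all genes tested, a difference that was not tested. It was 5.6% against 13.6% with siJMJD6 under MG132, 0.8% against 1.28% in HSF1 KO cells against siNT cells, 12.4% against 20.8% in HSF1 KO cells against siJMJD6 cells, 2.37% against 4.09% after heat shock and 0.0% against 0.266% with MG132. With siJMJD6 under MG132, 1 of 23 assembly factors rose (TRUB2, 1.89 ± 0.44) and 1 fell (RBFA, -1.11 ± 0.35), 1 of 15 translation factors fell (MTIF2, -0.87 ± 0.25), 5 of 80 respiratory genes rose and 4 fell, and 2 of 15 chaperones and proteases fell. None of 81 cytosolic ribosomal protein genes was called there by limma, with 6 at an unadjusted p under 0.05. None of the remaining lists had a call. Of these, 3 of 6 other ribosomal proteins, 2 of 15 transcription and maintenance genes and 2 of 15 synthetases were at that p. Over all genes tested in this comparison, 2769 of 9778 were at that p. In HSF1 KO cells against siNT cells, HSPD1 (-1.79 ± 0.22) and HSPE1 (-1.88 ± 0.24) fell and limma called no other of the 250 genes of these lists, with 23 at an unadjusted p under 0.05. With MG132 against DMSO it called none of the 250, with 5 at that p. HSF1 KO cells against siJMJD6 cells had 20 of them higher and 11 lower, among them ATP5G1 (1.98 ± 0.29) and METTL17 (1.07 ± 0.34) higher and HSPE1 (-1.24 ± 0.24) lower. Heat shock lowered PPARGC1B (-1.41 ± 0.36) and PPRC1 (-0.73 ± 0.19), coactivators of genes for mitochondrial proteins, with NDUFV3 (-0.72 ± 0.19) and the protease gene AFG3L2 (-0.39 ± 0.11), and raised RPS9 (0.31 ± 0.07) and RPL41 (0.29 ± 0.08). PPARGC1B was of low level, at 7.68, 4.38 and 8.55 normalised counts after heat shock and 20.9, 22.7 and 15.0 in basal libraries.

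RefSeq promoter windows, from 250 bases before to 50 after a start site, were found for 68 of the 77 genes. A gene can have several start sites, and a motif was counted for it if any of its windows held the motif (84 windows in all, 1.24 a gene, against 1.47 for tested genes). Those without one were MRPL2, MRPL10, MRPL13, MRPL15, MRPL21, MRPL23, MRPL35, MRPS28 and MRPS36. The ETS core CCGGAAG was found on either strand in 29 of the 68 genes (42.6%), against 23.7% of 7926 tested genes with a window and 12.2% of all 27305 genes with one. The YY1 site AANATGGC was found in 26 (38.2%), against 13.6% and 7.97%, and the NRF1 site in 9 (13.2%), against 14.5% and 6.98%. Counted by window, the shares were 38.1% of these genes' windows against 17.6% of tested genes' windows for the ETS core, 33.3% against 9.92% for the YY1 site and 11.9% against 10.6% for the NRF1 site. At least 1 of these 3 was present in 51 genes (75.0%), against 43.1% of tested genes. The CCAAT box was found in 23 genes (33.8%, against 44.0% and 39.7%). The heat shock element, searched as GAA, TTC and GAA with any 2 bases between neighbours, was found in 2, MRPL48 and MRPL51 (2.94%, against 0.479% and 0.608%), and the ATF4 composite element TGATGNAA in 1, MRPL55 (1.47%, against 2.67% and 4.46%). Motif matches overlapped in 1 of 84 windows of these genes. The median GC content was 59.7% for the 68 genes and 65.2% for tested genes.

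Split by the siJMJD6 comparison after heat shock, the ETS core was found in 16 of 28 genes that fell (57.1%), 5 of 12 that rose (41.7%) and 8 of 27 not called (29.6%). The NRF1 site was found in 1 of 28, 4 of 12 and 4 of 27, and the YY1 site in 11 of 28, 5 of 12 and 9 of 27. Of the promoters shown, MRPS18A and MRPS26 hold an ETS core and fell, MRPS33 holds an ETS core and an NRF1 site and rose, and MRPL42 holds a YY1 site and fell. The same split was not made for all genes tested, so whether it is particular to these genes cannot be said. These are counts of letters in windows, with no test, and do not show which factor acts on a gene.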

How the data were processed

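Messenger RNA of 17 PC3M libraries in 7 groups was prepared with QuantSeq FWD from 100 ng RNA, per the labels' protocols. The signal values are normalised counts deposited by the authors as 2 tables, normalised separately. Per the submitters' processing notes, FastQC 0.11.2, STAR 2.6.0 and HTSeq were used with build hg38, and the scaling, annotation and strand setting are not stated there. Low values were whole multiples of a read within 0.1 for 25.7% to 100% of values, so reads could not be recovered and precision rests on the spread between libraries. Log2(value + 1) was fitted with limma 3.58.1 (R 4.3.3, variance trend, all groups of a table together), for genes reaching 10 in at least 2 (MG132) or 3 (heat shock) libraries, 9778 and 9831 genes. A fold change on this scale understates that of low genes. P-values were adjusted by Benjamini-Hochberg over all genes of each of 6 comparisons and called under 0.05. Scripts were tested on simulated data. The genes and lists were chosen with earlier results of these data known. Named were up to 25 called genes per comparison by adjusted p (at least 4 genes where fewer were called), the 3 highest and lowest levels, MRPS18A to MRPS18C, MRPL12, MRPS12, genes called in both siJMJD6 comparisons, and up to 3 called genes of each other list. MRPL49 in a caption and MRPS36 were added after their values were seen. Gene positions, exon overlaps and pseudogenes come from GENCODE on GRCh38, and promoters and structural names from RefSeq (GRCh38.p14). Alternatives were a pseudocount of 10, no filter, trimmed-mean scaling, quantile normalisation, a fit of the compared groups only, a replicate block and leaving out each library.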

Additional observations from a re-analysis of the deposited data

Results flagged for a closer look

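HSF1 KO cells and siJMJD6 cells under MG132 were compared directly, and 14 genes differed between the 2 groups by limma (adjusted p under 0.05). Whether the groups also differed in transfection is not known here. These were 18.7% of the 75 genes, against 20.8% of all genes tested. HSF1 KO cells were higher than siJMJD6 cells for MRPL42 (log2 fold change 1.62), MRPL48 (1.34), MRPS23 (1.28), MRPS18A (1.18), MRPL19 (1.15), MRPL47 (1.05), MRPL3 (1.04), MRPS26 (0.93), MRPL11 (0.91), MRPS16 (0.88) and MRPS5 (0.68). They were lower for MRPL57 (-1.17), MRPL15 (-1.07) and MRPL17 (-0.78). MRPS23 had 119.4 and 99.0 normalised counts in HSF1 KO libraries, against 30.9 and 63.2 in siJMJD6 libraries, and MRPS16 had 958.1 and 741.6, against 575.2 and 363.3. None of the 14 calls held in every fit with 1 library left out. With no group of 4 or more libraries, single outlying libraries were not looked for.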

How the results depend on the processing

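No called gene changed direction in any alternative. The median of all 75 genes crossed 0 with 1 library left out in both stress comparisons and in siJMJD6 under MG132. For siJMJD6 against siNT under MG132, with 4 genes called higher and 4 lower, dropping the filter left 2 and 1, there were 1 and 1 in a fit of the 2 groups alone, and 0 to 4 and 2 to 5 with 1 library left out. For HSF1 KO against siJMJD6, with 11 higher and 3 lower, 6 were higher without the filter and 6 in a fit of the 2 groups alone, and 1 to 10 were higher and 0 to 4 lower with 1 library left out. For heat shock, with 1 higher and 0 lower, a pseudocount of 10 gave 2 higher, and 0 to 1 were lower with 1 library left out (1 when library 3 of siNT basal or library 1 of siNT heat shock was dropped). The causes of these shifts were not tested. For siJMJD6 after heat shock, with 12 higher and 29 lower, leaving out a library gave 8 to 13 and 24 to 31, and 29 of the 41 calls held in every alternative. The labels do not say that replicate numbers pair libraries, and the numbers were not used as pairs in the main fits. Deviations of same-numbered libraries correlated at -0.03 to 0.09 after heat shock or at basal state. With MG132 or DMSO, where titles of siRNA libraries carry X1 or X2, they correlated at 0.37, 0.32 and 0.04, all positive. Whether same-numbered libraries share an effect was not tested. With a replicate block the counts were 5 higher and 4 lower for siJMJD6 under MG132, and the same as without it in the other comparisons that could take it. The HSF1 KO libraries carry letters, so no block was possible for them. The MG132 table, with 2 libraries a group and a median standard error of 0.302, resolves less than the heat shock table (0.127): the smallest log2 change called with siJMJD6 was -0.81 (MRPL3) under MG132 and -0.21 (MRPS16) after heat shock. These 2 calls were kept in 1 of 8 and 3 of 9 fits with 1 library left out.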
